A study of Mus musculus with 2 samples.

Results

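A set of 10 imprinted genes from outside the H19, Mest, Peg13 and Meg3 loci was followed in the embryonic mouse heart with and without the long non-coding RNA Fendrr. They are Peg3, Plagl1, Grb10, Sgce, Peg10, Ndn, Snrpn, Impact, Zrsr1 and Nnat. They were picked by symbol, and each of the 10 had a row among the 23276 genes of the table. All 10 reached 1 FPKM as the mean of both libraries, as did 11349 genes in all. FPKM counts sequenced fragments per unit of transcript length and of library depth, so levels of different genes can be compared.

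The samples were heart ventricles at E12.5 (embryonic day) from a C57BL/6 x 129SV background. The WT group was wild type, and in the KO group both alleles of Fendrr had been removed by homologous recombination. In both groups the embryos came from embryonic stem cells combined with a tetraploid host, and the number of stem cell clones was not given in the sources used here. RNA of 4 pooled ventricles gave 1 strand-specific library per genotype, each read on its own sequencing run. Genotype, run and pool therefore cannot be told apart, and "higher" and "lower" compare 2 libraries.

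An imprinted gene is transcribed mainly from the copy inherited from one parent, and the parental copies are told apart by DNA methylation laid down in egg or sperm. Many imprinted genes act on fetal growth, with paternally expressed genes often promoting it and maternally expressed genes often restraining it. Of the 10 genes, 9 are known as paternally expressed in most tissues, and 1, Grb10, as maternally expressed outside the brain. The deposited values do not separate the parental copies.

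The arrangement of the loci bears on how reads can be assigned. Peg3 and Usp29 start back to back on opposite strands of chromosome 7, and the bases between the outermost RefSeq starts are shown because a pair of genes with very different levels begins at either end of them. Nnat lies inside Blcap on chromosome 2, on the opposite strand. Plagl1, on chromosome 10, and Nnat had the highest ratios of the 10 genes. For these 2 the longest stretch free of annotated exons within the 250 bases before the start is shown. Sequences are from RefSeq on GRCm38.p6, in the direction of the named gene, with each CG, the dinucleotide that carries DNA methylation, in capitals.
Peg3 (chr7:6730463-6730558, minus strand): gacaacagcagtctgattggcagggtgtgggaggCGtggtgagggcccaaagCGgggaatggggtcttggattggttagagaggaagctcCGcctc
Plagl1 (chr10:13090582-13090690, plus strand): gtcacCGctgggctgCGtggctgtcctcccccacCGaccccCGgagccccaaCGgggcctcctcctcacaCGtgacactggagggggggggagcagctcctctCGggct
Nnat (chr2:157560008-157560077, plus strand): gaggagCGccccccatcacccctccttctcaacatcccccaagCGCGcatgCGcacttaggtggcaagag

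These stretches hold 3 CG pairs for Peg3, 7 for Plagl1 and 4 for Nnat. Over the full promoter windows of 300 bases (250 before and 50 after a start), 7 of the 10 symbols had an entry, with 11 windows in all. The other 3 symbols were Sgce, Peg10 and Impact. The CG count was 45 and 9 in the windows of Grb10, 26 for Plagl1, 17 for Nnat, 13 for Peg3, 11 for Ndn, 10 for Zrsr1, and 2 to 7 in the 4 windows of Snrpn. The median of all 32851 windows was 7, and 7 of the 11 windows lay above it. The letters TGCCGC, the core bound by the imprint-keeping factor ZFP57 when methylated, were searched on both strands. They occurred in 4 of the 11 windows, 1 each of Grb10, Plagl1, Nnat and Snrpn, and in 11.6% of all windows. A match describes the letters only, since neither binding nor methylation was measured.

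The 10 genes had similar levels in the KO and WT libraries. None was 2-fold apart on the log2((KO + 1)/(WT + 1)) scale of FPKM, where 0.855% of all 11349 genes were. None was 1.5-fold apart in the deposited values, where 5.14% of all genes were. After each of 4 scalings that remove the overall shift described next, 1 gene, Nnat, was past 1.5-fold. The share of all genes past 1.5-fold was then 4.41% with median centring, 4.45% with upper-quartile scaling, 4.41% with trimmed mean scaling and 4.22% with quantile normalization. A count of 0 or 1 among 10 is near the background and is no result about these genes. Their log2 ratios ran from -0.21 for Ndn to 0.54 for Nnat. By FPKM, 7 genes were higher and 3 lower in KO. With Snrpn summed with the overlapping symbol Snurf, the counts were 6 and 4. The log2 ratios of all genes had a median of -0.11 and an upper quartile of 0.06. Fewer than 50.0% of all genes were therefore higher in KO.

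The whole table was shifted: the median log2 ratio of all genes was -0.11, and 95% of genes lay between -0.64 and 0.49. The median of the 10 genes was 0.09, which is 0.20 above that of all genes. Above the median of all genes lay 7 of the 10, beside 50.0% of all genes by definition, and 6 with Snrpn and Snurf summed. These 7 (Peg3, Plagl1, Grb10, Snrpn, Impact, Zrsr1 and Nnat) stayed above it, and stayed positive, under each pseudocount, filter and scaling in which they were kept. Ndn stayed below it in all of them, while Sgce lay above the median under 2 alternatives and Peg10 under 1.

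**Figure D1:**
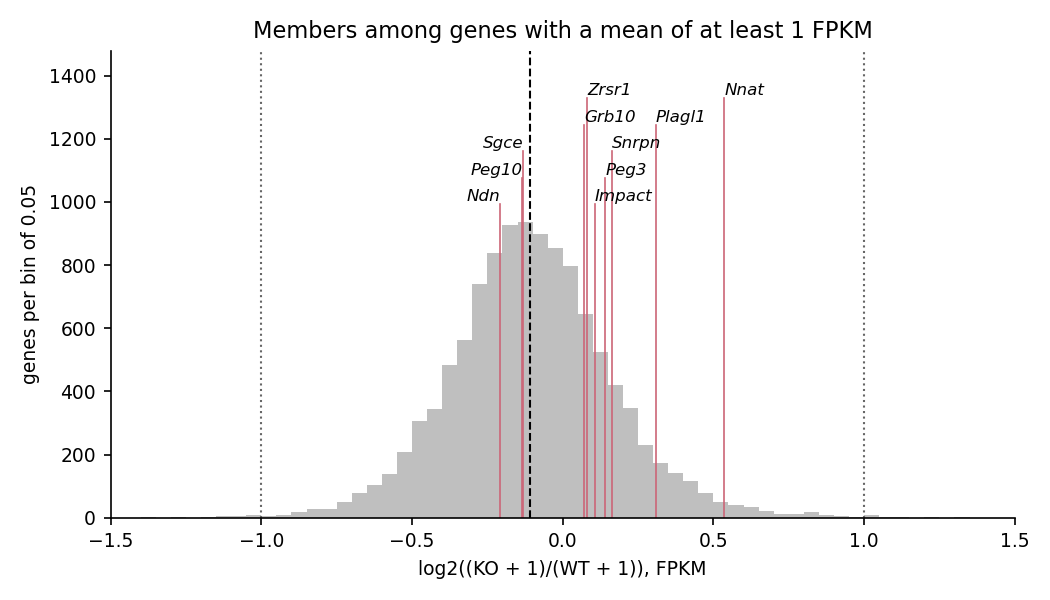
Histogram of log2((KO + 1)/(WT + 1)) in FPKM for the 11349 genes that reach a mean of 1 FPKM, in bins of 0.05, with a line for each of the 10 imprinted genes. The dashed line is the median of all genes (-0.11) and the dotted lines mark 2-fold. All 10 genes lie between the dotted lines, and Nnat is furthest to the right at 0.54; genes beyond the ends of the axis are not drawn.

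Low values of the table fall on whole multiples of the value of 1 fragment, which gives the depth. Low genes numbered 2213 (mean below 0.3 FPKM, neither value 0). For 68.9% of them, dividing the KO to WT ratio by 0.796 gave a quotient of 2 whole numbers no larger than 10, to within 0.1%. At other trial steps the median share was 1.08%, and 53.5% was the highest. For genes with 1 annotated transcript, FPKM times transcript length equalled a whole multiple of 76.4 within 0.1% in 35.8% of 612 WT values of up to 10 fragments. With other trial units the median share was 0.361%, and 14.1% was the highest. The values were thus scaled to about 13100000 fragments for WT and 16400000 for KO, 1.26 times as many. Zrsr1, at its annotated length of 4492 bases, came out at 108 fragments in WT and 148 in KO. The antisense RNA Peg3as, at 865 bases, came out at 637 and 1114.

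Fragments behind the other values were estimated from the shortest transcript with a RefSeq name and are approximate. They give the 95% exact binomial interval of each ratio of FPKM (KO over WT). These intervals cover counting error only. They contain no variation between embryos, pools or runs, and PCR copies of one molecule are not independent.

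**Figure D2:**
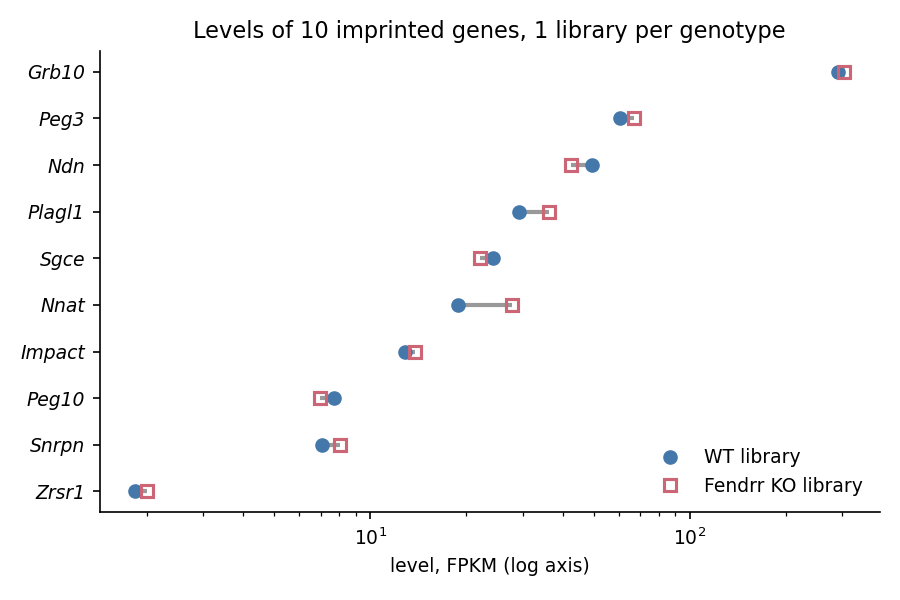
Level in FPKM (log axis) of each of the 10 imprinted genes in the WT library (filled circles) and the Fendrr KO library (open squares), 1 library each. Grb10 is highest, at 290 and 304 FPKM, and Zrsr1 lowest, at 1.84 and 2.00 FPKM, and the pair of symbols is close together for each gene.

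In order of level in WT, the genes were Grb10, Peg3, Ndn, Plagl1, Sgce, Nnat, Impact, Peg10, Snrpn and Zrsr1. The highest level was 158 times the lowest in WT and 152 times in KO. Of the 45 pairs of genes, 43 kept their order in KO. The exceptions were Nnat, which passed Sgce, and Snrpn, which passed Peg10. Summed over the 10 genes, levels were 501 (WT) and 530 FPKM (KO), most of it Grb10.

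Among growth restrainers, Grb10 was the most abundant. It encodes an adaptor that binds activated insulin and IGF receptors and dampens their signal. It was at 290 (WT) and 304 FPKM (KO), from about 18021 and 23776 fragments. The ratio was 1.05, with a counting interval of 1.03 to 1.07. Its log2 ratio of 0.07 was exceeded by 23.6% of expressed genes, so the difference, though beyond counting error, was small beside the scatter of the table.

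The receptors and mediators of that pathway were at similar levels too. Of 22 genes listed for insulin and IGF receptor signalling, 20 reached a mean of 1 FPKM. Of these, 13 lay above the median log2 ratio of all genes, none was 2-fold apart, and their median was 0.04 above that of all genes. Insr, the insulin receptor gene, was at 6.79 (WT) and 6.90 FPKM (KO). Igf2r, a clearance receptor for IGF2 that is itself imprinted, was at 272 and 286 FPKM. The related adaptor gene Grb14 was at 11.0 and 13.5 FPKM. Foxo1, a transcription factor gene held back by insulin, was at 1.61 and 1.87 FPKM. The list and its counts also include Pdk1, at 66.0 and 58.0 FPKM. That symbol names a pyruvate dehydrogenase kinase gene, not the insulin pathway kinase gene Pdpk1. Beside Grb10 on chromosome 11, Ddc was at 30.3 and 31.8 FPKM, Cobl at 1.31 and 1.60 FPKM and Fignl1 at 38.2 and 30.4 FPKM.

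Plagl1 and Nnat had the highest ratios. Plagl1, also called Zac1, encodes a zinc finger transcription factor that can halt the cell cycle and is known to act on other imprinted genes. It was at 29.1 (WT) and 36.3 FPKM (KO), about 2004 and 3139 fragments. The ratio was 1.25 (counting interval 1.18 to 1.32), and the log2 ratio of 0.31 was above that of 93.5% of all expressed genes. It was also above 95% of the 1000 genes nearest to it in level. Next to it, Fuca2 was at 7.98 and 10.5 FPKM, Ltv1 at 24.5 and 25.2 FPKM, Phactr2 at 19.9 and 16.6 FPKM and Sf3b5 at 31.3 and 24.8 FPKM. Its neighbours therefore lay on both sides of the median of all genes.

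Of 11 genes related to Plagl1 or described as its targets, all reached a mean of 1 FPKM, 8 lay above the median of all genes, with none 2-fold apart. Their median was 0.20 above that of all genes. Igf2, the fetal growth factor gene, was at 671 (WT) and 1004 FPKM (KO). It shares the H19 locus, which was set aside when the members were chosen, and H19 was at 1360 (WT) and 41.9 FPKM (KO). Whether the level of Igf2 is related to that of Plagl1 was not tested. Cdkn1c, an imprinted inhibitor of the cell cycle, was at 267 and 261 FPKM. Socs3 was at 0.757 and 1.36 FPKM. The relatives Plag1 (3.79 and 5.04 FPKM) and Plagl2 (2.19 and 1.57 FPKM) differed in opposite directions.

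Nnat encodes neuronatin, a small membrane protein of developing brain and endocrine cells that resembles the calcium pump regulator phospholamban. It was at 18.9 (WT) and 27.8 FPKM (KO), the widest difference of the 10 genes. The ratio was 1.47, with a counting interval of 1.17 to 1.88 for the shortest of 5 transcripts (458 bases, about 113 and 210 fragments). With the longest (1213 bases, about 300 and 555 fragments) the interval was 1.28 to 1.70. The log2 ratio of 0.54 was above that of 98.1% of expressed genes, and it was the only one of the 10 outside the central 95% of the 1000 genes nearest in level (-0.61 to 0.39).

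The host gene did not share this difference. Blcap, inside which Nnat lies, was at 3.89 (WT) and 3.45 FPKM (KO), so that Nnat was at 4.85 times the level of Blcap in WT and 8.07 times in KO. Whether the counting used strand is not given in the sources used here. If it did not, reads of Nnat and Blcap cannot be told apart where they overlap. The next genes, Ctnnbl1 (14.2 and 12.51 FPKM) and Tgm2 (75.8 and 74.5 FPKM), were also not higher in KO. The calcium pump gene Atp2a2 was at 319 and 265 FPKM, and Pln, which encodes phospholamban, at 492 and 511 FPKM.

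Markers of other cell types differed as follows. Of 10 genes of cushion mesenchyme and fibroblasts, all measured, 9 were above the median ratio, and by FPKM 9 were higher in KO. Their summed level was 549 (WT) and 666 FPKM (KO), and none was at 0. Of 10 endothelial genes 9 lay above the median, 7 were higher and 3 lower in KO by FPKM, and the sums were 245 and 257 FPKM. Of all genes, 50.0% lay above the median by definition, and fewer than 50.0% were higher in KO by FPKM. Of 12 genes of neurons, nerve and neural crest, 2 (Tubb3 and Stmn2) reached a mean of 1 FPKM, and the summed level was 5.16 and 5.36 FPKM. In that list Sox10, a neural crest factor gene, was at 0.0282 and 0.112 FPKM. The part of these cells in the values of Nnat and Plagl1 was not tested. In pooled tissue, more cells of a type and more RNA per cell cannot be told apart.

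**Figure D3:**
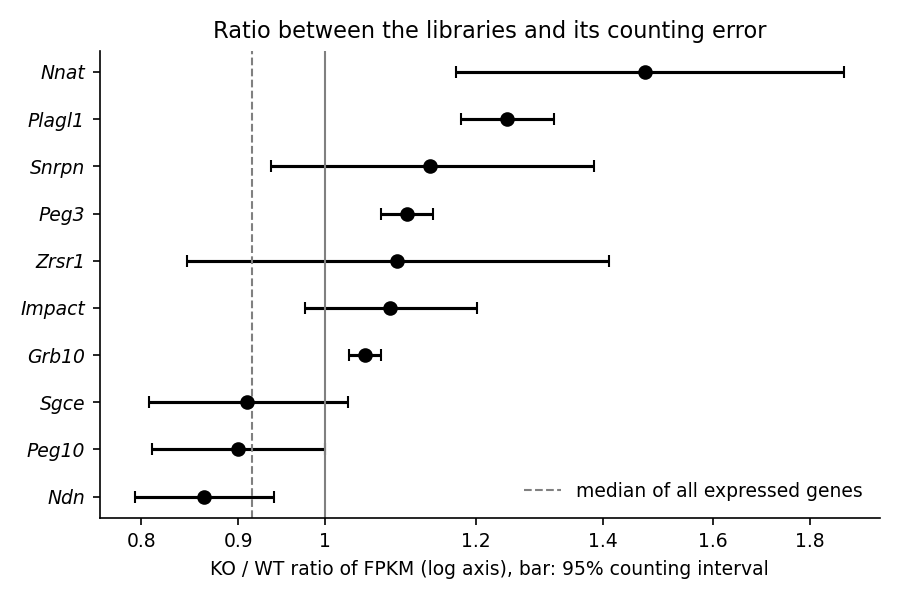
Ratio of FPKM, KO over WT (log axis), of each of the 10 imprinted genes, with bars for the 95% exact counting interval. The solid line marks equal levels and the dashed line the median ratio of all expressed genes, 0.915. Nnat, Plagl1, Peg3 and Grb10 lie wholly to the right of the solid line, Ndn and, narrowly, Peg10 to its left, and no bar lies wholly left of the dashed line.

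Peg3 encodes a large zinc finger protein needed for normal fetal growth and maternal behaviour. It was at 60.5 (WT) and 66.8 FPKM (KO), about 6887 and 9555 fragments. The ratio was 1.104, with a counting interval of 1.07 to 1.14, and 16.4% of expressed genes had a higher log2 ratio. The RNA Peg3as lies within Peg3 on the opposite strand and had a level close to that of Peg3, at 56.3 and 78.3 FPKM. Its ratio was 1.39, with a counting interval of 1.26 to 1.54. The libraries keep strand, but whether the counting used it is not given in the sources used here. If it did not, reads of Peg3 and Peg3as cannot be told apart where they overlap, so both are uncertain.

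Usp29, which starts at the far end of the stretch printed above, encodes a deubiquitinase and was low in this tissue. It was at 0.501 (WT) and 0.773 FPKM (KO), so that Peg3 was at 121 times its level in WT and 86.5 times in KO. With about 29 and 55 fragments, the ratio of 1.54 for Usp29 had a counting interval of 0.946 to 2.45. Zim1, a zinc finger gene beyond Peg3, was at 12.7 and 12.1 FPKM. Genes whose proteins are described as acting with PEG3, in apoptosis and in Wnt and NF-kappa-B signalling, lay mostly below the median of all genes. All 10 of these genes were measured, 2 lay above that median, none was 2-fold apart, and their median was -0.21 relative to all genes. Any relation to the level of Peg3 was not tested. Bax, which encodes an activator of cell death, was at 11.3 and 7.77 FPKM, and Siah1b, a ubiquitin ligase gene, at 4.98 and 2.81 FPKM. Ctnnb1, which encodes beta-catenin, was at 232 and 201 FPKM and Sqstm1 at 67.8 and 74.5 FPKM.

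Sgce and Peg10 begin close together on opposite strands of chromosome 6 and had nearly the same ratio. Sgce encodes epsilon-sarcoglycan, a membrane glycoprotein of the dystrophin complex, and was at 24.2 (WT) and 22.0 FPKM (KO). Its ratio was 0.910, with a counting interval of 0.808 to 1.03. Peg10, a gene derived from a retrotransposon and needed for the placenta, was at 7.71 and 6.94 FPKM. Its ratio was 0.900, with a counting interval of 0.810 to 0.9997. Both lay near the median ratio of all genes, 0.915, and 53.4% and 53.9% of expressed genes had a higher log2 ratio than Sgce and Peg10. Sgce was at 3.13 times the level of Peg10 in WT and 3.17 times in KO.

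Most measured genes around this pair lay above the median of all genes, while Sgce and Peg10 lay just below it. Casd1, next to Sgce, was at 21.1 (WT) and 20.5 FPKM (KO), and Ppp1r9a, beyond Peg10, at 5.55 and 5.03 FPKM. Asb4 was at 8.72 and 9.16 FPKM, Pon3 at 9.34 and 8.73 FPKM and Pon2 at 10.62 and 12.6 FPKM. Col1a2 was at 49.9 and 58.0 FPKM and Tfpi2 at 1.93 and 1.73 FPKM. None of the 7 measured neighbours was 2-fold apart. Of 10 other genes of the retrotransposon-derived kind, 3 reached a mean of 1 FPKM: Ldoc1l (3.56 and 2.56 FPKM), Rtl1 (0.803 and 1.46 FPKM) and Zcchc5 (0.778 and 1.24 FPKM). Of 8 genes of trophoblast, the cells in which Peg10 is best known, 1 reached a mean of 1 FPKM. It was Hand1, which the heart also expresses (4.35 and 6.86 FPKM), and 5 genes, among them Tpbpa and Elf5, were listed at 0 in both libraries.

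Partners of Sgce in the dystrophin complex lay on both sides. Of 13 measured genes, 9 lay above the median of all genes, none was 2-fold apart, and their median was 0.10 above that of all genes. Dag1, which encodes dystroglycan, was at 42.2 (WT) and 29.99 FPKM (KO). Dmd, the dystrophin gene, was at 8.27 and 11.3 FPKM and Sspn (sarcospan) at 26.9 and 30.1 FPKM. Sgce was more abundant in both libraries than Sgcd, which encodes delta-sarcoglycan and was at 11.5 and 11.6 FPKM.

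Ndn and Snrpn belong to 1 imprinted domain of chromosome 7, the counterpart of the human Prader-Willi region. Ndn encodes necdin, a growth suppressor of the MAGE family. It was at 49.3 (WT) and 42.6 FPKM (KO), about 1066 and 1157 fragments. Its ratio of 0.864 was the lowest of the 10 genes, and the counting interval of 0.794 to 0.940 held the median of all genes, 0.915. Ndn was thus lower in KO by more than counting error, but its interval did not lie below the ratio of the typical gene.

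Snrpn encodes SmN, a core protein of splicing particles best known from brain and heart. It was at 7.09 (WT) and 8.05 FPKM (KO), and its ratio of 1.14 had a counting interval of 0.937 to 1.39. Snurf, which overlaps Snrpn on the same strand and is made from the same RNA, was at 7.07 and 4.47 FPKM. How reads were split between these symbols is uncertain, and together they came to 14.2 (WT) and 12.52 FPKM (KO), a ratio of 0.885. The difference of Snrpn thus changes direction when both symbols are summed.

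Of the other genes of this region, 7 reached a mean of 1 FPKM, and none of these was 2-fold apart. Ube3a, a ubiquitin ligase gene with maternal expression in neurons, was at 39.7 (WT) and 37.1 FPKM (KO). Peg12 was at 2.34 and 2.97 FPKM and Mkrn3 at 0.660 and 0.549 FPKM. Magel2, the nearest relative of Ndn in the domain, was at 0.0328 and 0.0130 FPKM, and Ipw was listed at 0 in both libraries. Several genes lie further along the chromosome. Of these, Nipa2, which encodes a magnesium transporter, was at 13.8 and 9.93 FPKM, Nipa1 at 2.64 and 2.61 FPKM, and Cyfip1 at 9.92 and 8.85 FPKM. The abundant MAGE genes lay outside the domain: Maged1 was at 168 and 154 FPKM and Maged2 at 151 and 107 FPKM. Of 11 measured genes of that family and of necdin partners, 3 lay above the median of all genes, with none 2-fold apart. Trim28, which encodes a corepressor that also keeps imprints methylated, was at 65.4 and 40.9 FPKM.

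Among splicing partners, Snrpb, which encodes the SmB proteins that SmN resembles, was at 64.1 (WT) and 50.9 FPKM (KO). Snrpn was at 0.111 times the level of Snrpb in WT and 0.158 times in KO. Of 13 measured genes of the Sm core and the SMN complex, 4 lay above the median of all genes, with none 2-fold apart. Snrpd2 was at 129.8 and 78.0 FPKM, Snrpe at 279 and 199.6 FPKM, Snrpd1 at 143 and 128 FPKM and Snrpf at 56.9 and 75.1 FPKM.

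Zrsr1 and Impact differed by no more than their counting error. Zrsr1 is a copy without introns that lies inside Commd1 on the opposite strand of chromosome 11, and it encodes a relative of the splicing factor U2AF. At 1.84 (WT) and 2.00 FPKM (KO) it had a ratio of 1.09, with a counting interval of 0.845 to 1.41. Its host Commd1 was at 84.2 and 85.0 FPKM, 45.8 and 42.4 times the level of Zrsr1. If the counting did not use strand, reads of Commd1 and Zrsr1 cannot be told apart where they overlap. The level and ratio of Zrsr1 are therefore uncertain. The parent gene Zrsr2, a splicing factor of the minor spliceosome, was at 4.88 and 5.63 FPKM. Of 12 measured genes that recognise 3 prime splice sites or minor introns, 7 lay above the median of all genes, with none 2-fold apart. Snrnp35 was furthest from the median, at 5.39 and 10.4 FPKM, followed by Rnpc3 at 9.38 and 11.7 FPKM. The most abundant were Rbm39 (135 and 131 FPKM) and Puf60 (62.6 and 64.2 FPKM), and U2af1 was at 38.7 and 40.03 FPKM.

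Impact encodes a protein that holds back the kinase GCN2, the sensor of amino acid shortage, by competing for its activator GCN1. It was at 12.8 (WT) and 13.9 FPKM (KO), about 630 and 857 fragments. The ratio was 1.08, with a counting interval of 0.976 to 1.20. The GCN2 gene Eif2ak4 was at 3.62 and 3.57 FPKM and the GCN1 gene Gcn1l1 at 8.25 and 7.26 FPKM. Of 16 measured genes of this stress response, 6 lay above the median of all genes, with none 2-fold apart. The effector Atf4 was at 80.6 and 69.8 FPKM, the GCN2 substrate gene Eif2s1 at 42.6 and 34.6 FPKM, the ATF4 target Mthfd2 at 13.0 and 7.76 FPKM, and Ppp1r15a at 10.4 and 14.6 FPKM. Next to Impact, Osbpl1a was at 26.6 FPKM in both libraries.

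Against counting error alone, 4 of the 10 genes (Nnat, Plagl1, Peg3 and Grb10) had intervals above equal levels and 2 (Ndn and Peg10) below. The remaining 4 held it. Against the median ratio of all genes, 6 intervals lay above it, those of Snrpn and Impact besides the first 4, and 0 lay below. Without Snrpn, whose ratio summed with Snurf was 0.885, the count was 5. Such intervals were not computed for all genes. With no share of all genes beside them, these counts are no result about the 10 genes.

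**Figure D4:**
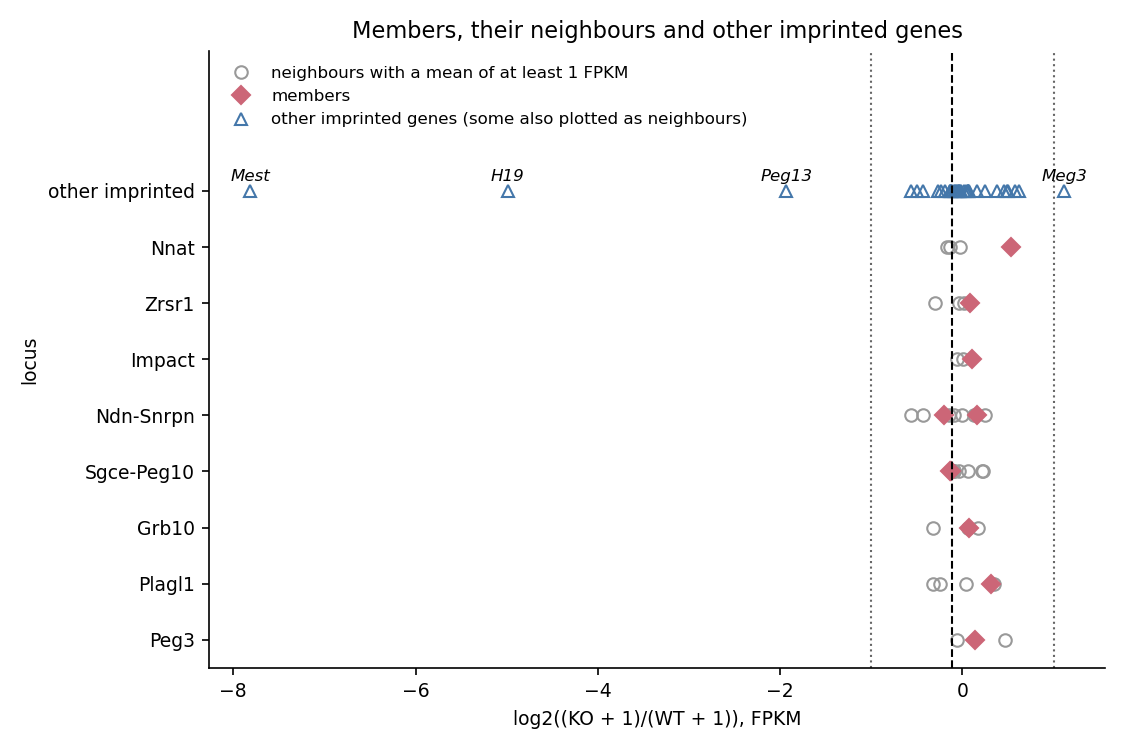
log2((KO + 1)/(WT + 1)) in FPKM of the 10 imprinted genes (diamonds), of neighbours in each locus (circles) and of 38 other imprinted genes (triangles, some also plotted as neighbours), all with a mean of at least 1 FPKM. The dashed line is the median of all genes and the dotted lines mark 2-fold. No diamond or circle lies beyond the dotted lines, while Mest, H19, Peg13 and Meg3 do.

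Another 38 imprinted genes reached a mean of 1 FPKM. Of these, 9 lie in the loci of the 10 genes and 29 elsewhere. Of the 38, 4 genes (Mest, H19, Peg13 and Meg3), all elsewhere, were at least 2-fold apart, 3 of them lower and 1 higher in KO, beside 0.388% and 0.467% of all genes. The log2 ratios of the rest ran from -0.56 to 0.62. Many genes of this list are imprinted only in some tissues or isoforms. These 4 loci were known to differ when the 10 genes were chosen from outside them, so the contrast is fixed by the choice and was not tested. Mest was at 557 (WT) and 1.48 FPKM (KO), beside which no member of the 10 differed by more than 1.47-fold. The imprinted genes nearest to the median log2 ratio of the 10, over the 2 libraries, were Igf2r (0.07), Ddc (0.07) and Asb4 (0.06). Ddc lies beside Grb10 and Asb4 in the Peg10 locus.

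The dissected tissue carried the heart markers. The 12 cardiomyocyte genes were all measured, with summed levels of 24095 and 23895 FPKM, Myl2 being highest. Of 8 liver and yolk sac genes, Afp was at 0.110 (WT) and 16.6 FPKM (KO), and the summed level was 0.685 and 21.4 FPKM. Alb and Hnf4a were listed at 0 in both libraries. Among 8 skeletal muscle genes Ckm, which the heart also expresses, was at 45.8 and 84.6 FPKM, and Pax7 and Myf5 were listed at 0 in both. Summed leukocyte markers were at 13.1 and 23.8 FPKM (5 of 8 genes measured), erythroid markers at 4865 and 5482 FPKM (7 of 10) and epicardial markers at 102 and 105 FPKM (8 of 8). The part of such cells in the values of the 10 genes was not tested.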

How the data were processed

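Per the file headers, the authors deposited 1 FPKM value per gene symbol for 1 WT and 1 KO library. Per the submitters' processing notes, TopHat2 2.0.6, Bowtie2 2.0.2 and Cufflinks 2.0.2 were used on mm9; the sources used here do not give annotation, options or strand setting. Per the labels, RNA was depleted of ribosomal RNA, and libraries had 15 PCR cycles and reads of 100 bases. The WT run stopped during its second reads, so its bases were called manually and possibly filtered, unlike the KO run.

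Log2((KO + 1)/(WT + 1)) was computed where the mean of both libraries reached 1 FPKM, with 2-fold as the limit. With 1 library per genotype no test of genotype is possible. The procedure was tested on simulated data. The genes and lists were chosen with earlier results of these data known. All 10 genes and some of their neighbours were named, and up to 4 genes per list (the 2 highest and the 2 furthest from the median). Insr, Eif2ak4, Gcn1l1, Plag1, Plagl2, Snrpb, Zrsr2, U2af1, Sgcd, Sox10 and the markers at 0 were added for their roles or after their values were seen. Some genes that the rule names are not reported here. Transcript lengths came from GENCODE vM21 and neighbours from RefSeq, both on GRCm38, and no coordinates of the table were used. Fragments were FPKM times length over the value of 1 fragment, capped at the RefSeq gene span. Alternatives were pseudocounts of 0.1 and 5, no filter, a mean of at least 5, 4 scalings (median centring, upper quartile, trimmed mean, quantile) and a 1.5-fold limit; the longest transcript, the sum of Snrpn and Snurf, and the 1.5-fold limit after scaling were added after seeing the data. Computations used Python 3.11.15, numpy 2.4.6, pandas 2.3.3, scipy 1.17.1 and matplotlib 3.10.9.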

Additional observations from a re-analysis of the deposited data

How the results depend on the processing

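No paired analysis was possible because there is 1 library per genotype, which also means that none can be left out. The count of members 2-fold apart stayed 0 under the 8 alternatives for normalization, pseudocount and filter, and at 1.5-fold on the deposited values. Combining the 1.5-fold limit with median centring, upper-quartile, trimmed mean or quantile scaling, chosen after seeing the data, gave 1 each time, Nnat. With Snrpn and Snurf summed, also chosen after seeing the data, 6 members lay above the median of all genes. Otherwise 7 or 8 of them lay above the median of all genes, 8 with quantile normalization and at a mean of at least 5 FPKM, where Zrsr1 was left out. The median of the 10 genes relative to all genes was 0.15 both with a pseudocount of 5 and without a filter, against 0.20. Of 79 recomputed log2 ratios of single members, 63 stayed within the counting interval's half-width. Sgce changed sign under 1 alternative, reaching 0.01 with quantile normalization, and Nnat ran from 0.46 to 0.68. Among all genes, 53 were 2-fold higher and 44 lower in KO. A pseudocount of 0.1 gave 98 and 98, one of 5 gave 16 and 17, and the 1.5-fold limit gave 175 and 408. At a mean of at least 5 FPKM 26 were higher. After scaling, 27 were lower by median centring, by the upper quartile and by the trimmed mean, and 26 by quantile normalization, while 62 to 66 were higher. The median log2 ratio was -0.051 without a filter, 0 by construction with median centring, 0.0021 with upper-quartile scaling, -0.00037 with trimmed mean scaling and -0.0068 with quantile normalization, against -0.11. Depth limited Zrsr1, Snrpn and Nnat most.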
